A study of Mus musculus with 28 samples.

Results

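The 38 Hox genes described here were chosen by symbol from the 4 mouse Hox clusters, by a rule that uses no measured value, out of 41605 gene identifiers in a table of raw read counts. The table held 28 bulk RNA-seq libraries of peripheral nerve from C57BL/6J mice, with 4 libraries at each of 7 stages. The stages were E13 and E17 by label, which are E13.5 and E17.5 embryos in the design, and postnatal days P1, P5, P14, P24 and P60. No group carried a transgene, a deletion or a treatment, and no mouse was perfused. The E13 libraries were made from various nerves that lay distal to the dorsal root ganglia, pooled from 2 embryos of the same sex, and these nerves kept their outer layers. The label calls the tissue sciatic nerve at every stage, E13 included. The E17 libraries came from the sciatic nerves of 2 embryos and each postnatal library from those of 1 mouse, with as much of the epineurium and the perineurium peeled away as could be. Age, nerve and dissection therefore cannot be told apart in a comparison with E13, whereas the 6 stages from E17 to P60 compare sciatic nerve that was stripped in the same way, in which some of the outer layers may remain.

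Hox genes encode homeodomain transcription factors that give cells along the head-to-tail axis their regional identity. They lie in clusters in which the order of the genes follows the order of their expression along the body, from the head (low paralog numbers) to the tail (high numbers). Members with the same number in different clusters are paralogs and overlap in function. Most bind DNA together with TALE homeodomain cofactors of the Pbx, Meis and Pknox families, and retinoic acid, Cdx and Gdf11 signals help to set their early domains. Polycomb proteins keep silent Hox genes silent and trithorax proteins keep active ones active, so that cells taken from adult tissue can still carry the Hox pattern of their origin. In limb nerves, Hox genes are best known from the motor neurons that innervate the limb, from the neural crest and from connective tissue cells. In bulk nerve RNA, fewer cells of a type and less RNA per cell cannot be told apart.

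The promoters of 4 members are shown here because the results below turn on these genes: Hoxd8 went against the other members between E13 and E17, Hoxd9 and Hoxd10 are its neighbours in cluster D, and Hoxb8 is its paralog in cluster B. They were picked after the values were seen. Each sequence runs from 250 bases before to 50 bases after the start of the RefSeq transcript in GRCm38.p6, 5′ to 3′ on the strand of the gene, and capitals mark CG dinucleotides, the sites of DNA methylation.
Hoxd8 (chr2:74704365-74704664, plus strand): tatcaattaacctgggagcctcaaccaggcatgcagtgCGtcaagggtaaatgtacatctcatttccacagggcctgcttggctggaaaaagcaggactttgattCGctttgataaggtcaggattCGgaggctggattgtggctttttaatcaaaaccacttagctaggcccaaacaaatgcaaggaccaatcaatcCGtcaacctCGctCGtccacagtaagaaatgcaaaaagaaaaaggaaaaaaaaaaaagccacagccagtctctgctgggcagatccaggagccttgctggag
Hoxd9 (chr2:74697513-74697812, plus strand): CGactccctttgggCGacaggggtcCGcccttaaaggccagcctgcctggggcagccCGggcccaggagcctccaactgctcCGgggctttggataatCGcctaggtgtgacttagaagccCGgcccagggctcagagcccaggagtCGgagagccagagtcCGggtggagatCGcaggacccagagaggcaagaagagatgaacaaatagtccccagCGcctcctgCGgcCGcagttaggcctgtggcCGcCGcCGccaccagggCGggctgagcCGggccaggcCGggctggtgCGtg
Hoxd10 (chr2:74691641-74691940, plus strand): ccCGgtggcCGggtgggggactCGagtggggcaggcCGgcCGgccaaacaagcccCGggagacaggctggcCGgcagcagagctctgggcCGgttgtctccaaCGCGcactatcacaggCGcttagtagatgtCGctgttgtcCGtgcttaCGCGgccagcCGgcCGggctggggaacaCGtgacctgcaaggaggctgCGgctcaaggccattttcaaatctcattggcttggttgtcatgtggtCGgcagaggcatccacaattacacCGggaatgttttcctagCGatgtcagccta
Hoxb8 (chr11:96281655-96281954, plus strand): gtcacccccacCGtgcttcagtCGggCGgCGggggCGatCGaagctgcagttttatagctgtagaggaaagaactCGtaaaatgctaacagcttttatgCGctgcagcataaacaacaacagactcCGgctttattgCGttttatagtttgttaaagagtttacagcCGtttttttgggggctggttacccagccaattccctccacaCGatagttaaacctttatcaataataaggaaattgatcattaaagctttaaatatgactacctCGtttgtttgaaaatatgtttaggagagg

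The Hoxd8 window held 6 CG dinucleotides, against 20 in the Hoxd9 window, 22 in the Hoxd10 window and 13 in the Hoxb8 window. RefSeq entries matched 22 of the 38 members with 24 windows, which held a median of 14.5 CG dinucleotides and from 4 (Hoxd4, Hoxa9 and 1 of the 2 Hoxd11 windows) to 45 (Hoxa13). The median over 32851 windows of 27025 genes was 7. A TGATNNAT motif, the joint site of a Pbx and a Hox protein, was searched on both strands and was found in 4 of the 24 Hox windows (16.7%) and in 8.85% of all windows. The 4 windows belonged to Hoxb8, Hoxb1, Hoxd11 and Hoxa2. These counts describe the letters of the windows only.

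Levels are given as CPM (counts scaled to a common library size, with TMM factors), and as RPKM (the same value per kilobase of exon) where genes are compared with each other. A gene was called where its adjusted p in edgeR's quasi-likelihood test was under 0.05 over the 17700 genes tested and the fold change was at least 2. Of the 38 members, 34 passed the filter on low counts. Hoxa13, Hoxb13, Hoxc12 and Hoxd13, which pattern the distal limb, the tail and the skin appendages, did not pass, and their highest counts in any library were 8, 23, 37 and 28. Another 5 members, Hoxb1, Hoxc13, Hoxd1, Hoxd11 and Hoxd12, passed only through their E13 counts, so that a difference from E13 was built into their selection. The other 29 passed without the E13 libraries. Total counts ran from 13899895 to 37662780 per library, and the members together took 23301 to 35455 counts per library at E13 and 1001 to 4713 at the later stages.

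**Figure D1:**
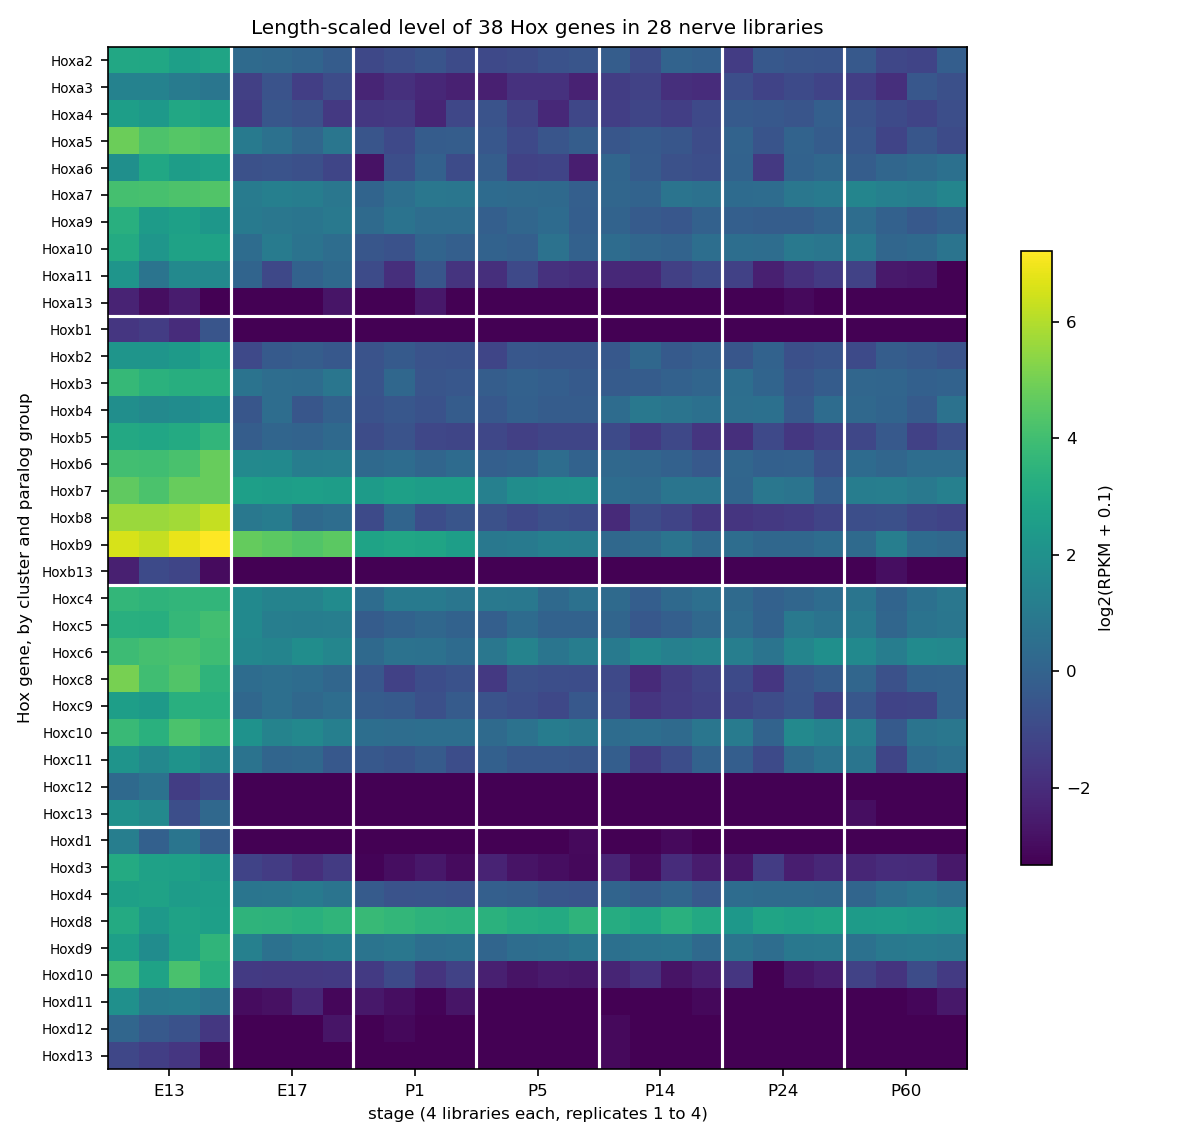
Length-scaled level of the 38 Hox genes in each of the 28 libraries, as log2(RPKM + 0.1), with genes in rows by cluster and paralog group and libraries in columns by stage. The 4 E13 libraries are the brightest columns for all clusters, the Hoxd8 row stays bright from E17 on, and the rows of Hoxb1, Hoxc12, Hoxc13, Hoxd1 and Hoxd13 are at or near 0 after E13.

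The comparison of E17 with E13 asks how the Hox genes of late fetal sciatic nerve differ from those of the earlier mixed nerves. Summed over its members, each cluster was lower at E17. The summed level of the 38 genes was 448 ± 60.3 RPKM at E13 (SD, n = 4, 367 to 512) and 76.7 ± 5.03 RPKM at E17 (71.0 to 83.2). Among the 29 members that passed the filter without the E13 libraries, 28 were called lower and none higher, where 21.2% of all genes tested were called lower and 35.5% were called in either direction. Their median log2 fold change was -2.47, and that of all genes tested was -0.08. The libraries of the 2 stages did not overlap for the same 28 members with E17 lower and for the remaining member, Hoxd8, with E17 higher, where 25% and 21.8% of the genes tested did not overlap in these directions.

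Hoxd8, a gene of paralog group 8 in cluster D (chr2:74704615-74707933), was the only member higher at E17. Its level was 23.3, 13.8, 18 and 16.4 CPM in E13 replicates 1 to 4 and 31.7, 30.7, 27.7 and 32.7 CPM at E17. Every E17 library lay above every E13 library. The log2 fold change was 0.78 ± 0.15 (SE), or 1.72-fold higher at E17, with an adjusted p of 4.5e-05 in edgeR's quasi-likelihood test, under the 2-fold minimum of a call. Scaling by library size alone gave 0.53 with the median of all genes at -0.33. Removing the GC trend among libraries of the same stage gave 0.65 (adjusted p = 0.0292 in edgeR), which leaves a GC trend between stages in place. The log2 fold change was 0.95 without E13 replicates 1 and 4 and P1 replicate 1. An earlier analysis of these data found these libraries to follow GC content most closely. No exon of another counted gene overlaps Hoxd8.

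The neighbours and the paralogs of Hoxd8 went the other way. Hoxd9 (chr2:74697727-74700208), which acts in hindlimb and lumbar patterning, was at 13.1, 7.27, 13.541 and 24.7 CPM at E13 and 4.95, 3.06, 3.76 and 4.34 CPM at E17, with a log2 fold change of -1.86 ± 0.25 (SE, adjusted p = 4.1e-07). Hoxd10 (chr2:74691924-74695105), a gene of lumbar motor neurons, was at 29.3, 12, 32.5 and 17.472 CPM at E13 and 0.440, 0.423, 0.427 and 0.440 CPM at E17. Its libraries did not overlap and its level was 52.2-fold lower at E17 (log2 fold change -5.71 ± 0.39, adjusted p = 1.1e-12). Hoxc8, a paralog of Hoxd8 that specifies brachial motor pools, fell by 4.07 on the log2 scale (SE 0.32, adjusted p = 2.4e-11), from 56.9 to 3.38 CPM on average.

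The 28 called members covered a wide range of fold changes in each cluster. On the log2 scale, cluster A ran from Hoxa4 (-3.94) to Hoxa11 (-1.86), cluster B from Hoxb8 (-5.23) to Hoxb7 (-2.05), cluster C from Hoxc8 (-4.07) to Hoxc11 (-1.77) and cluster D, without Hoxd8, from Hoxd10 (-5.71) to Hoxd4 (-1.84). Hoxa5, which acts in the lung and the neck-to-chest boundary, went from 53.1, 36.0, 40.6 and 37.0 CPM to 3.46, 2.64, 1.90 and 3.08 CPM. Hoxa4, its neighbour, went from 9.24, 8.08, 12.5 and 10.7 CPM to 0.440, 0.951, 0.815 and 0.377 CPM, and Hoxc10, a lumbar gene, from 26.8, 19.5, 35.1 and 26.0 CPM to 7.70, 4.81, 5.55 and 4.21 CPM. None of these 3 genes had overlapping libraries.

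Hoxb8 and Hoxb9 were the most abundant members at E13. Hoxb8 (chr11:96281905-96285315), known from spinal sensory circuits and myeloid cells, was at 130, 131, 140 and 203 CPM at E13 and 4.56, 5.33, 2.91 and 3.27 CPM at E17. Replicate 4 was the highest of the E13 libraries, and the stages were far apart, with Hoxb8 37.6-fold lower at E17 (log2 fold change -5.23 ± 0.25, adjusted p = 9.9e-16). Hoxb9 (chr11:96271457-96276595), a thoracic patterning gene, was at 241, 201, 297 and 380 CPM at E13 and 67.0, 59.9, 52.4 and 60.1 CPM at E17. Its stages did not overlap either, but its fold change was smaller, 4.67-fold lower at E17 (log2 fold change -2.22 ± 0.18, adjusted p = 2.5e-11). At E17 Hoxb9 was still the most abundant member, at 23.3 ± 2.31 RPKM (SD, n = 4), ahead of Hoxd8 at 11.2 ± 0.779 RPKM, with no overlap of their libraries.

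The largest falls by the rule for naming included Hoxc13 and Hoxd1, which were 2 of the 5 members that passed the filter only through E13. Hoxc13 (chr15:102921103-102928814), a gene of hair follicles and nails, was at 9.67, 7.39, 1.19 and 2.63 CPM at E13 and at 0 counts in each E17 library. Set against a floor of 3 counts in the shallowest E17 library, its mean was at least 27.7-fold lower at E17. Hoxd1 (chr2:74762980-74765142), which takes part in nociceptor wiring in mice, was at 4.01, 1.53, 3 and 1.42 CPM at E13 and 0 counts at E17, at least 13.2-fold lower. No p is given for these 2 genes, because their E13 level had let them into the test.

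Hoxb1, the gene of the fourth hindbrain segment, had counts of 15, 15, 10 and 26 at E13 and 0 in each of the 24 later libraries, at least 3.76-fold lower at E17. The same bound was 2.62-fold for Hoxb13, 4.46-fold for Hoxc12 and 2.98-fold for Hoxd13. Hoxd11, a gene of the forearm and lower leg, had counts of 490, 199, 241 and 126 at E13 and 2, 3, 13 and 1 at E17. Hoxd12 had 77, 42, 37 and 11 counts at E13 and 0, 0, 0 and 2 at E17. Hoxa13, a digit gene, had at most 8 counts in an E13 library and at most 2 in an E17 library, so that a difference was not detectable at this depth.

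Markers of other cell types moved with the stage. The 8 neuronal cell body markers summed to 956 to 1821 CPM in the E13 libraries and to 24.3 to 33.4 CPM in the E17 libraries, and the 5 skeletal muscle markers to 22.8 to 578 CPM and 4.65 to 15.9 CPM. The neuronal nuclear marker Rbfox3 was at 23.4 to 36.0 CPM at E13 and had 0 or 1 count in each E17 library. The 6 Schwann cell markers went from 304 to 620 CPM at E13 up to 2435 to 2640 CPM at E17, and the 6 mesenchymal markers from 1522 to 2594 CPM up to 16117 to 18074 CPM. The 4 macrophage markers went from 324 to 420 CPM down to 90.6 to 103 CPM, and the 4 endothelial markers from 140 to 188 CPM up to 238 to 288 CPM. The 5 perineurial markers went from 128 to 256 CPM up to 268 to 303 CPM, and the mural, cartilage and epidermal lists overlapped between the stages. None of the neuronal or muscle markers was at 0 in all libraries of E13 or E17. E13 replicate 4, highest for Hoxb8 and Hoxb9, was also highest for the neuronal list. Other members were highest in other E13 libraries, such as Hoxa5 in replicate 1 and Hoxa4 in replicate 3. The part of these cells in the Hox differences was not tested.

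**Figure D2:**
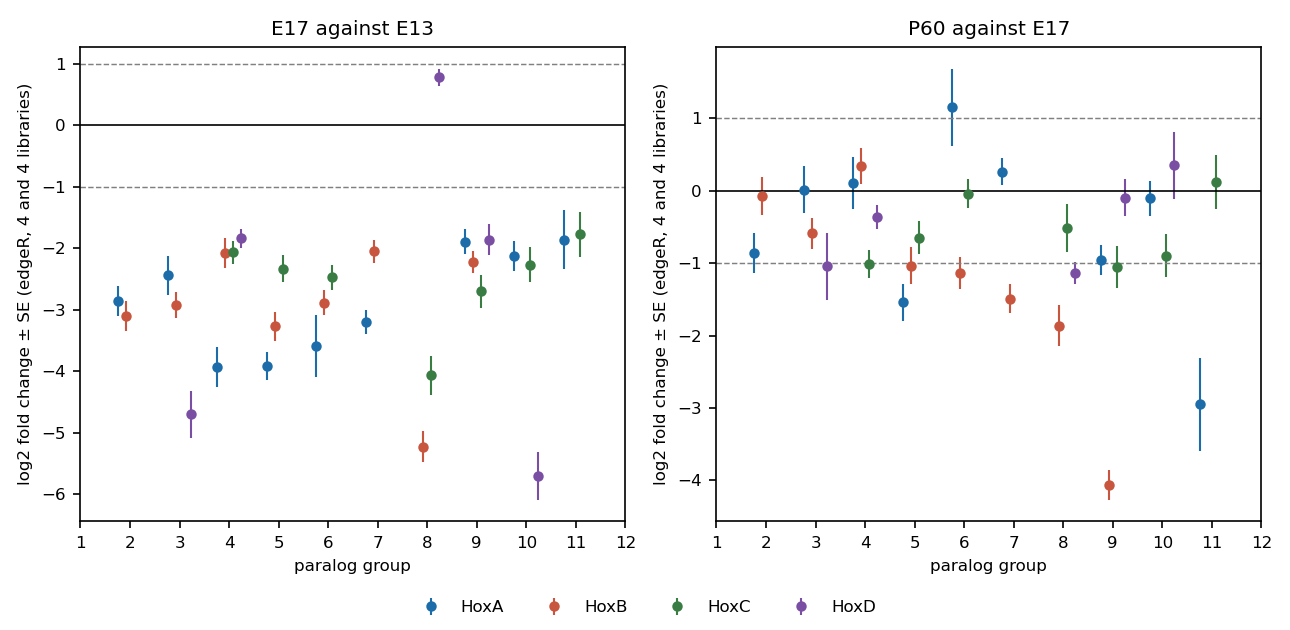
Log2 fold change with its SE (edgeR, 4 libraries against 4) for the 29 Hox genes that passed the filter without the E13 libraries, by paralog group and coloured by cluster, for E17 against E13 (left) and P60 against E17 (right). Dashed lines mark 2-fold, Hoxd8 is the only point above 0 on the left, and Hoxb9 (-4.06) and Hoxa11 (-2.95) lie lowest on the right.

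Between E17 and P1 the same sciatic nerve is compared across birth. Of the 29 members that passed without the E13 libraries, 14 were called lower at P1 and none higher, where 5.41% of all genes tested were called lower and 11.7% in either direction. Their median log2 fold change was -1.04 against 0.00 for all genes tested. The 14 were Hoxa2, Hoxa3, Hoxa5 and Hoxa10 of cluster A, Hoxb5, Hoxb6, Hoxb8 and Hoxb9 of cluster B, Hoxc5, Hoxc6, Hoxc8 and Hoxc10 of cluster C, and Hoxd3 and Hoxd4 of cluster D. All but Hoxd3 fell by 1.04 to 1.79 on the log2 scale. The libraries of the 2 stages did not overlap for 19 members, all lower at P1, where 19.1% of the genes tested were that way. The summed Hox level went from 76.7 ± 5.03 to 43.6 ± 2.16 RPKM (SD, n = 4). Marker lists moved over this step as well. The 8 neuronal cell body markers summed to 24.3 to 33.4 CPM at E17 and 6.93 to 20.9 CPM at P1, the 5 muscle markers to 4.65 to 15.9 and 0.465 to 1.31 CPM, and the 4 endothelial markers to 238 to 288 and 141 to 161 CPM. The 5 perineurial markers were also lower at P1, at 268 to 303 and 157 to 233 CPM, as were the 4 cartilage markers, at 91.2 to 109 and 60.1 to 85.2 CPM, while the 4 mural cell markers were higher, at 127 to 155 and 167 to 181 CPM. The 6 Schwann cell markers summed to 2435 to 2640 CPM at E17 and 3467 to 3802 CPM at P1, and the mesenchymal list overlapped between the stages, at 16117 to 18074 and 12315 to 17671 CPM. The macrophage and epidermal lists overlapped too. Their part in the Hox differences was not tested.

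Hoxd3 (chr2:74711927-74748442), a gene of the upper neck vertebrae, was at 1.37, 1.11, 0.698 and 1.07 CPM at E17 and 0.0364, 0.125, 0.255 and 0.0931 CPM at P1. The stages did not overlap and the fold change was the largest of the 14, 8-fold lower (log2 fold change -3 ± 0.51, adjusted p = 5.2e-05), from counts of 25, 21, 18 and 17 down to 1, 3, 7 and 3. Hoxa3 (chr6:52169062-52213336), which shapes the neck and throat glands, was at 1.81, 3.33, 1.71 and 2.64 CPM and 0.693, 1.04, 0.766 and 0.589 CPM, with a log2 fold change of -1.62 ± 0.34 (adjusted p = 0.00055). The annotated exons of Hoxd3 share 53.1% of their bases with the gene model Gm28230 on the same strand, and those of Hoxd4 39.1%. Those of Hoxa3 share 8.01% with Gm28308 on the same strand and 4.86% to 8.36% with each of several genes on the opposite strand. Overlaps also cover 16% of the exon bases of Hoxa4, 15% of Hoxa2, 10.8% of Hoxd11, 8.7% of Hoxc10 and 5.73% of Hoxd10. Smaller ones lie in Hoxc5, Hoxb5 and Hoxa9. How shared reads were assigned is not stated, so the values of all these genes are uncertain wherever they are given.

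Hoxb9 fell at this step and at the next. It was at 17.4, 18.9, 18.1 and 14.9 CPM at P1 and 4.54, 5.01, 5.69 and 5.65 CPM at P5. Neither step had overlapping libraries. The log2 fold change was -1.79 ± 0.18 from E17 to P1 (adjusted p = 8.2e-09) and -1.73 ± 0.18 from P1 to P5 (adjusted p = 9.2e-08). With it the first place passed to Hoxd8, which was at 37.7, 34.3, 30.0 and 29.2 CPM at P1 and showed no call against E17 (log2 fold change 0.09 ± 0.14, adjusted p = 0.67). At P1 Hoxd8 stood at 12 ± 1.45 RPKM, Hoxb9 at 6.73 ± 0.667 and Hoxb7 at 5.76 ± 0.359. The libraries of Hoxd8 lay above those of the other two, whose libraries overlapped each other.

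Between neighbouring stages from P1 to P60, 0 to 3 of the 34 members tested were called at each step. At P5 against P1 it was 3, all lower, and 2 of the 29 that passed without E13, where 1.79% of all genes tested were called lower and 5.84% in either direction. Without the fold minimum it was 5, and 7 had an unadjusted p under 0.05. Beside Hoxb9 these were Hoxd10 and Hoxd11, which fell outside the rule for naming and are given because the count is small. Hoxd10 had counts of 12, 18, 10 and 19 at P1 and 4, 3, 3 and 3 at P5, and Hoxd11 7, 3, 1 and 7 and 0, 0, 0 and 0. Both calls rest on fewer than 20 counts in any library. The libraries did not overlap for 4 members with P5 lower and for 1, Hoxc6, with P5 higher, where 14.6% and 15.8% of the genes tested did not overlap in these directions. The macrophage list went from 96.8 to 115 CPM at P1 up to 204 to 230 CPM at P5 and the mural list from 167 to 181 CPM up to 294 to 348 CPM, with the Schwann cell and endothelial lists also higher without overlap. Their part in the calls was not tested.

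At P14 against P5 the only call was Hoxb7, where 12% of all genes tested were called and 4.91% were called lower. The count was 3 without the fold minimum and 1 to 2 with 1 library left out. Hoxb7 (chr11:96286623-96290162), a gene of the brachial and thoracic level, was at 8.35, 9.66, 8.79 and 8.75 CPM at P1, 3.58, 5.36, 5.95 and 5.98 CPM at P5 and 1.89, 1.75, 2.49 and 2.47 CPM at P14. The P14 libraries lay below all P5 libraries (log2 fold change -1.27 ± 0.20, adjusted p = 1.6e-05). Hoxb4, known from blood stem cells, went from 1.67, 2.15, 1.88 and 1.91 CPM to 3.12, 4.46, 3.96 and 3.49 CPM without overlap, a log2 difference of 0.98 ± 0.24 (adjusted p = 0.0028) just under the 2-fold minimum. The libraries did not overlap for 2 members with P14 lower and 2 with P14 higher (Hoxb2 and Hoxb4), where 22% and 21.6% of the genes tested did not. The cartilage markers went from 71.8 to 83.5 CPM at P5 down to 8.28 to 10.5 CPM at P14 and the perineurial markers from 176 to 223 CPM up to 459 to 566 CPM. The Schwann cell, mural, endothelial, muscle and epidermal lists were also higher and the macrophage list was lower, each without overlap. The neuronal and mesenchymal lists overlapped, and the part of these cells in the Hox values was not tested.

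At P24 against P14 edgeR called none of the 34 members tested, where it called 2.65% of all genes tested. At an unadjusted p under 0.05 there were 7 members, and DESeq2's Wald test called 1. Hoxd8 was at 24.6, 21, 28 and 22.0 CPM at P14 and 13.2, 19.2, 17.8 and 19.3 CPM at P24, with no overlap and a log2 fold change of -0.46 ± 0.15 (adjusted p = 0.07), which did not pass the test. It was the only member without overlap that was lower at P24, and Hoxa3, Hoxa4 and Hoxd4 were the 3 that were higher, where 9.31% and 7.24% of the genes tested did not overlap in these directions. The Schwann cell markers went from 4766 to 4958 CPM at P14 down to 3550 to 4716 CPM at P24. The muscle list was also lower and the cartilage list higher without overlap, while the other lists overlapped. Their part in these values was not tested.

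At P60 against P24 the only call was Hoxd10, higher at P60, where 2.55% of all genes tested were called higher and 5.96% in either direction. Its counts were 5, 0, 2 and 4 at P24 and 8, 5, 13 and 7 at P60, which overlap, and it was named after its values were seen. The call was lost without P24 replicate 2, P24 replicate 3 or P60 replicate 3, and in a fit of these 2 stages alone. Hoxa7 and Hoxb7, neighbours in function at the brachial and thoracic level, showed smaller differences without overlap. The antisense transcript Hoxaas3 covers 20.4% of the exon bases of Hoxa7, so the Hoxa7 values are uncertain wherever they are given. Hoxa7 was at 3.39, 3.56, 4.94 and 5.34 CPM at P24 and 7.67, 6.53, 5.97 and 7.6 CPM at P60 (log2 fold change 0.67 ± 0.19, adjusted p = 0.015), and Hoxb7 at 1.5, 2.67, 2.37 and 1.2 and 3.22, 3.34, 2.80 and 3.52 CPM (0.73 ± 0.21, adjusted p = 0.017). These 2 were the members higher without overlap and 1 member was lower, where 12.5% and 14.6% of the genes tested did not overlap in these directions. The perineurial markers went from 522 to 821 CPM at P24 up to 1000 to 1412 CPM at P60 and the mesenchymal markers from 7126 to 14843 CPM down to 4931 to 7087 CPM. The neuronal, endothelial and mural lists were also higher and the cartilage list lower without overlap. The other lists overlapped, and the part of these cells in the Hox values was not tested.

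**Figure D3:**
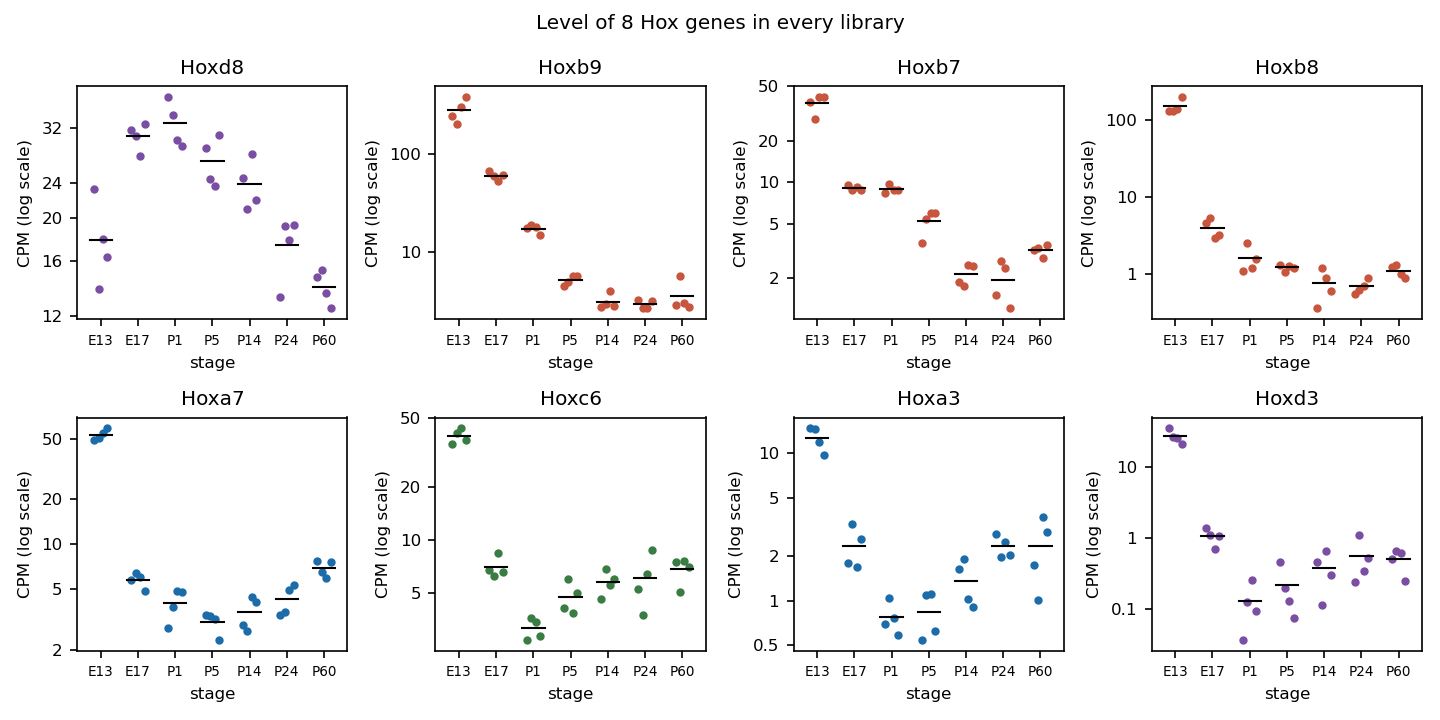
Level in CPM (log scale, a separate axis for each gene) of 8 Hox genes in each library by stage, with points for the 4 libraries in replicate order and a bar for their mean. Hoxb9 descends from 201 to 380 CPM at E13 to under 6 CPM from P5 on, whereas Hoxd8 is highest at E17 and P1.

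Over the whole span of the stripped sciatic nerve, P60 against E17, 11 of the 29 members that passed without the E13 libraries were called lower and none higher, where 17.497% of all genes tested were called lower and 39.7% in either direction. Their median log2 fold change was -0.65 against 0.00 for all genes. Cluster B held 5 of the calls (Hoxb5 to Hoxb9) and clusters A (Hoxa5, Hoxa11), C (Hoxc4, Hoxc9) and D (Hoxd3, Hoxd8) held 2 each. Hoxb9 fell the most, to 2.92, 5.66, 3.05 and 2.76 CPM at P60, 16.7-fold below E17 (log2 fold change -4.06 ± 0.21, adjusted p = 9.9e-16). The libraries of the 2 stages did not overlap for 15 members with P60 lower and 1, Hoxa6, with P60 higher, where 33.8% and 33.9% of the genes tested were that way. Replicate 2 was the highest of the P60 libraries for Hoxb9 and still far below the lowest E17 library. Markers of other cell types moved over this span too. The 6 mesenchymal markers summed to 16117 to 18074 CPM at E17 and 4931 to 7087 CPM at P60, the 6 Schwann cell markers to 2435 to 2640 and 4051 to 4500 CPM, and the 5 perineurial markers to 268 to 303 and 1000 to 1412 CPM. The 4 cartilage markers summed to 91.2 to 109 and 3.58 to 7.11 CPM, with Acan and Matn1 at 0 in all P60 libraries, and the 5 muscle markers to 4.65 to 15.9 and 0 to 0.753 CPM. The 4 mural cell markers summed to 127 to 155 and 486 to 526 CPM, the 4 endothelial markers to 238 to 288 and 337 to 362 CPM, and the 4 macrophage markers to 90.6 to 103 and 129 to 180 CPM. The neuronal and epidermal lists overlapped between these stages. Their part in the result was not tested.

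Hoxa11 (chr6:52242106-52245810), a gene of the middle limb segment, was at 2.14, 0.898, 2.02 and 2.51 CPM at E17 and 0.731, 0.145, 0.124 and 0 CPM at P60. Its stages did not overlap (log2 fold change -2.95 ± 0.64, adjusted p = 0.00024), but the P60 counts were 10, 2, 2 and 0, and its antisense transcript Hoxa11os covers 35% of its exon bases on the other strand. Hoxb8 was at 1.24, 1.31, 0.995 and 0.879 CPM at P60, 3.64-fold below E17 (log2 fold change -1.86 ± 0.28, adjusted p = 2.1e-06). Hoxd8 was at 14.7, 15.2, 13.6 and 12.5 CPM at P60, below each E17 library (log2 fold change -1.13 ± 0.15, adjusted p = 1.9e-07). Hoxd3 was called at an adjusted p of 0.049, with the overlap with Gm28230 given above.

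The members without a call over this span included genes from all parts of the clusters. Hoxc6, a gene of forelimb-level motor columns, was at 6.76, 6.23, 8.50 and 6.60 CPM at E17, 2.70, 3.58, 3.43 and 2.85 CPM at P1 and 7.53, 5.08, 7.65 and 7.03 CPM at P60. The P1 libraries lay below the others, and P60 differed from E17 by -0.04 ± 0.20 on the log2 scale (adjusted p = 0.87). Hoxa3 was at 1.75, 1.02, 3.73 and 2.95 CPM at P60, 0.01 ± 0.32 from E17 (adjusted p = 0.98). Hoxa7 was at 5.77, 6.39, 6.01 and 4.90 CPM at E17 and 0.26 ± 0.19 from it at P60 (adjusted p = 0.22). Hoxa6 was higher at P60 without overlap, 0.440, 0.475, 0.427 and 0.314 CPM against 0.658, 0.871, 0.995 and 1.19 CPM, but its log2 fold change of 1.15 ± 0.53 had an adjusted p of 0.06.

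Tested over the 6 sciatic stages together, 24 of the 29 members that passed without the E13 libraries changed by at least 2-fold between some stages, as did Hoxd11, where 51.4% of all genes tested did. Of these 25, E17 was the highest stage for 19. The others peaked at P1 (Hoxd8), P14 (Hoxb4), P24 (Hoxa4 and Hoxa10) and P60 (Hoxa7 and Hoxd10). The lowest stage was P1 for 9 members (Hoxa2, Hoxa3, Hoxa4, Hoxa10, Hoxb4, Hoxc6, Hoxc10, Hoxd3 and Hoxd4), P24 for 6 (Hoxb5 to Hoxb9 and Hoxc4), P14 for 4 (Hoxa9, Hoxc5, Hoxc8 and Hoxc9), and P5 and P60 for 3 each. The 5 members without a call were Hoxa6, Hoxb2, Hoxb3, Hoxc11 and Hoxd9. Hoxd9 was the steadiest of the 29, with stage means that spanned 0.53 on the log2 scale (adjusted p = 0.35).

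Hoxd9 and Hoxb2 had the smallest ranges of stage means after E13 among the 29 members. The P1 libraries of Hoxd9 held 3.32, 3.66, 2.77 and 2.92 CPM, the P5 libraries 2.08, 2.69, 2.87 and 3.45 CPM and the P14 libraries 2.91, 3.22, 3.39 and 2.35 CPM. In P24 nerve it was at 3.31, 2.67, 3.70 and 3.88 CPM and in P60 nerve at 3.07, 3.85, 4.23 and 3.89 CPM. Each of these 5 ranges overlapped that of E17. Hoxb2, a hindbrain gene, was at 15.1, 15.2, 18.3 and 26.2 CPM at E13, 1.37, 2.38, 2.64 and 2.26 at E17 and 1.46, 2.61, 2.30 and 1.88 at P60. The test over the 6 stages gave Hoxb2 an adjusted p of 0.37. The antisense transcript Hoxb3os, which was higher at P60 than at E17, covers 27.3% of the exon bases of Hoxb2, so the Hoxb2 values are uncertain. As a percent of the E13 level of each gene, the median of the 29 members was 18% in E17 nerve, 7.84% in P1 nerve and 7.25% in P5 nerve, then 8.12%, 8.86% and 11.0% in the 3 oldest stages.

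The make-up of the Hox level differed between stages along with its sum, which is given as a description with no test. Cluster B held 52.9% ± 5.90 of the summed Hox RPKM at E13 (SD, n = 4), 48.3% ± 1.26 at E17, 38% ± 1.65 at P1, 27.1% ± 2.97 at P5 and 23.8% ± 4.27 at P60. Cluster D, by contrast, held 9.6% ± 1.67 at E13, between 19.3% and 21.3% in the E17 libraries, 33.0% ± 3.46 at P1, 35.7% ± 3.22 at P14 and 25.3% ± 3.67 at P60. From E13 to E17 and from E17 to P1 the libraries did not overlap for cluster D. This rise in share lay in Hoxd8, while the summed level of cluster D was 43.0 RPKM at E13, 15.3 RPKM at E17 and 14.4 RPKM at P1. The other cluster D genes together held 8.14% ± 1.39 at E13, 5.39% ± 0.47 at E17 and 5.59% ± 0.50 at P1, then 10.3% ± 2.09 at P60. The share of Hoxd8 itself went from 1.46% in E13 nerve to 14.6% in E17 nerve and 27.4% in P1 nerve, and was 15.0% in P60 nerve, and Hoxb9 was 23.9% at E13, 30.3% at E17 and 15.4% at P1.

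By position, paralog groups 9 to 13 held 45.1% ± 1.42 at E17 and 30.9% ± 0.86 at P1, without overlap, and 26.5% ± 2.07 at P60. Groups 4 to 8 held 50.1% ± 1.21 at E17, 64.7% ± 0.96 at P1 and 65.9% ± 1.54 at P60. Groups 1 to 3, which act in the hindbrain and neck, held 4.78% ± 0.26, 4.38% ± 0.61 and 7.54% ± 0.55 at these stages. Each member of groups 1 to 3 read at these stages (Hoxa2, Hoxa3, Hoxb2, Hoxb3 and Hoxd3) has exons overlapped by another gene, so this share is uncertain. Much of the differences in the other groups between E17 and P1 lay in Hoxb9. Without Hoxb9, groups 9 to 13 held 21.3% at E17 (19.8% to 23.1%), 18.3% at P1 (17.6% to 18.7%) and 23.3% at P60, and cluster B held 25.8% at E17, 26.6% at P1 and 20.6% at P60. Cluster D without Hoxb9 in the sum held 28.7% at E17 and 39.1% at P1. These are shares of a sum, so a rise of 1 share includes the fall of others, and they rest on the annotated exon length of each gene.

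**Figure D4:**
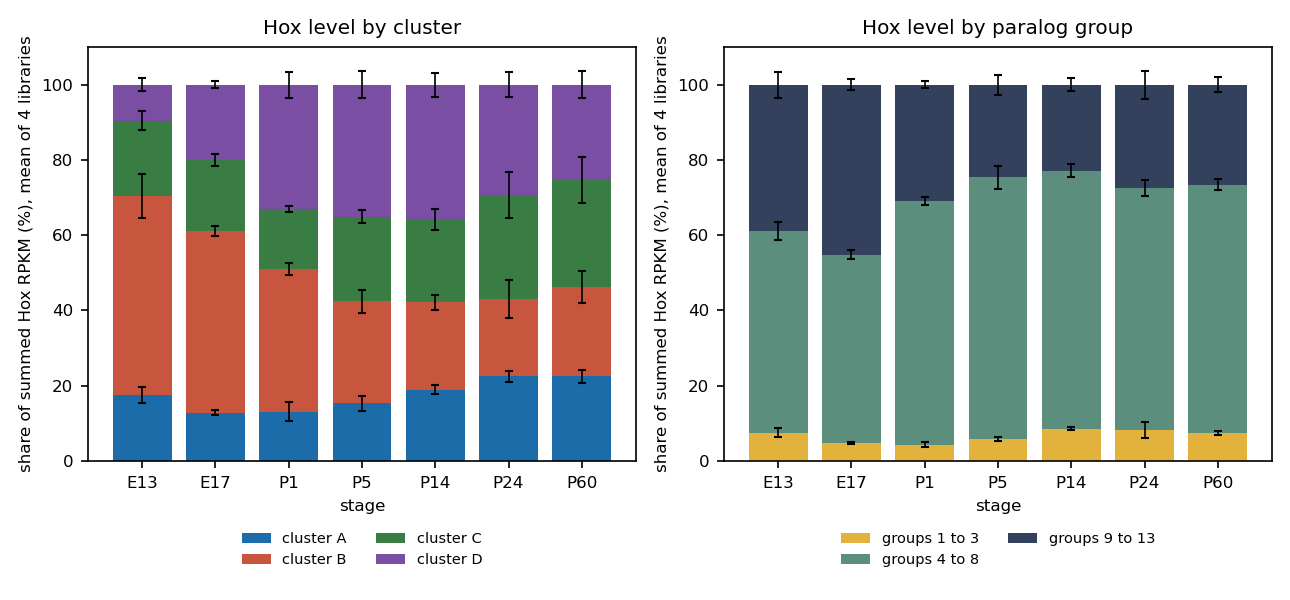
Share of the summed Hox RPKM by cluster (left) and by paralog group (right) at each stage, as the mean of 4 libraries, where each error bar is the SD of the segment below it, centred on that segment's top. Cluster B narrows from 52.9% at E13 to 23.8% at P60, and groups 9 to 13 narrow from 45.1% at E17 to 30.9% at P1 with Hoxb9 included (21.3% and 18.3% without it).

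In the adult nerve at P60 a set of Hox genes was still read. Of the 38 members, 22 had at least 10 counts in each of the 4 libraries and 6 had 0 counts in all (Hoxa13, Hoxb1, Hoxc12, Hoxd1, Hoxd12 and Hoxd13). The highest member of cluster D was Hoxd8 at 5.10 ± 0.445 RPKM (SD, n = 4), of cluster C Hoxc6 at 2.83 ± 0.495, of cluster A Hoxa7 at 2.41 ± 0.290 (with the overlap by Hoxaas3 given above) and of cluster B Hoxb7 at 2.08 ± 0.198. Hoxd8 lay above the others in each library. Hoxc6 and Hoxa7 overlapped, as did Hoxa7 and Hoxb7, and the fifth place was taken by Hoxd9 at 1.76 ± 0.229 RPKM, which overlapped Hoxb7. The summed level was 34.4 ± 2.95 RPKM at P60, against 31.2 ± 1.63 at P14, 31.8 ± 3.34 at P24 and 34.0 ± 1.29 at P5.

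Genes of the wider Hox system were taken as 71 symbols in 6 lists. At E17 against E13, 62 were tested, 25 were called lower and 2 higher, with a median log2 fold change of -0.66 against -0.08 for all genes, where 21.2% of all genes tested were called lower and 35.5% in either direction. For 5 of the 25, Hoxb5os, Haglr, Evx1, Evx2 and Skap1, the filter was passed only through the E13 counts, so that a difference from E13 was built in. Of the 57 that passed without the E13 libraries, 20 were called lower and 2 higher, with a median of -0.42. Of the 9 TALE cofactors, 6 were called lower and none higher. Meis2 went from 129, 75.9, 83.1 and 43.9 CPM to 4.62, 4.23, 4.50 and 3.52 CPM without overlap (log2 fold change -4.30 ± 0.28, adjusted p = 3.7e-13). Meis1 went from 78.5, 59.5, 67.5 and 63.5 CPM to 7.86, 9.56, 9.66 and 7.29 CPM (-2.96 ± 0.13, adjusted p = 2.7e-16). Meis3 (-2.41), Pbx3 (-2), Pbx4 (-1.94) and Pknox2 (-1.5) fell less on the log2 scale.

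At P60 against E17, 19 of the 62 were called, 8 higher and 11 lower, where 7035 of 17700 genes tested (39.7%) were called, so the share of the lists lay below that of all genes. Without the fold minimum, 38 of the 62 had an adjusted p under 0.05, as did 11373 of the 17700. Of the TALE cofactors Pbx2 (-1.10) and Pbx3 (-1.35) were lower. Of the 19 Polycomb and trithorax genes none was called by edgeR at E17 against E13, where 35.5% of all genes were called. The 2-fold minimum set that count, since 11 of the 19 had an adjusted p under 0.05, 6 of them higher and 5 lower (12 at an unadjusted p under 0.05). Of the 19, 4 were called at P60 against E17, where 39.7% of all genes were, and 14 had an adjusted p under 0.05 at any fold. Ezh2, the histone H3 lysine 27 methyltransferase of dividing cells, went from 126, 116, 107 and 119 CPM to 13.1, 11.4, 12.1 and 11.1 CPM (log2 fold change -3.29 ± 0.16, adjusted p = 3.9e-16). Its counterpart Ezh1 went from 25.1, 21.2, 18.5 and 21.6 CPM to 142, 131, 138 and 137 CPM (2.67 ± 0.10, adjusted p = 3.5e-18). Cbx7, a chromodomain protein of Polycomb complex PRC1, went from 3.19, 1.3203, 3.03 and 3.46 CPM to 125, 121, 146 and 142 CPM (5.61 ± 0.24, adjusted p = 2.8e-17). The libraries of the 2 stages did not overlap for any of these, and Suz12 (-1.16) was lower with Ezh2.

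The retinoic acid and inducer list had 7 of 11 genes tested. Aldh1a2, which makes retinoic acid, was at 99.5, 89.0, 139 and 131 CPM at E13, 13.7, 7.18, 8.69 and 7.35 CPM at E17 and 0.658, 0.218, 0.808 and 0.440 CPM at P60, and was called lower at both steps (-3.63 ± 0.44 and -4.09 ± 0.58). Cyp26b1, which breaks retinoic acid down, was at 7.75, 9.29, 7.55 and 9.74 CPM at E13, 0.715, 1.43, 0.931 and 0.754 CPM at E17 and 33.2, 16.3, 24.7 and 30.3 CPM at P60, called lower at the first step (-3.15 ± 0.27) and higher at the second (4.76 ± 0.28). Rarg, a retinoic acid receptor, rose by 1.22 on the log2 scale between E13 and E17, and Gdf11 (-2.11) and the receptor Rarb (-1.96) fell between E17 and P60. All these calls had adjusted p-values of 1.9e-06 or smaller.

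Of the 12 non-coding RNAs of the clusters, 10 were tested, and at E17 against E13 8 were called lower and 1 higher, where 21.2% of all genes tested were called lower and 35.5% in either direction. Without Hoxb5os and Haglr, which passed only through E13, the count was 6 lower and 1 higher of 8. The exception was Hoxb3os, antisense to Hoxb2 and Hoxb3, at 1.99, 2.02, 2.20 and 0.579 CPM at E13, 4.45, 4.70, 3.80 and 2.95 CPM at E17 and 17.542, 17.7, 18.3 and 17.6 CPM at P60. It was higher at both steps without overlap (1.2 ± 0.23, adjusted p = 4.8e-05, and 2.16 ± 0.21, adjusted p = 1.2e-09), while Hoxb3 fell by 2.92 at the first. Hoxb3os covers 52.9% of the exon bases of Hoxb3 and 27.3% of those of Hoxb2 on the opposite strand. The strand setting of the counting is not stated, so these 3 genes cannot be separated with certainty. Hotairm1 of cluster A was lower at E17 (-1.71) and higher at P60 (+1.72).

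Limb regional factors and genes beside the clusters complete the lists. Of 7 limb factors tested, 3 were called lower at E17 against E13 and none higher, beside the same 21.2% of all genes. Lmx1b, the gene of dorsal limb identity, was at 12, 25.2, 19.8 and 51.5 CPM at E13 and 0.440, 0.581, 0.815 and 0.377 CPM at E17 (-5.56 ± 0.45, adjusted p = 3.2e-11). Hand2, of the posterior limb bud and sympathetic neurons, was at 3.01, 8.80, 31.0 and 58.1 CPM and 0.825, 0.211, 1.05 and 0.628 CPM (-5.17 ± 0.75, adjusted p = 1.3e-06), and Tbx3 was the third call (-1.05). Of the 10 flanking genes, all tested, 5 were called lower at E17. Evx1, Evx2 and Skap1 were among them, with at most 0, 1 and 6 counts in any library after E13, and passed the filter only through E13. Of the 7 that passed without E13, Smug1 (-1.45) and Skap2 (-1.19) were lower and none was higher, a share near the 21.2% of all genes. At P60 against E17, Ttll6 (+7.71), Calcoco1 (+1.91) and Skap2 (+1.08) were higher and Mtx2 (-1.12) was lower, 4 of 10 genes called where 39.7% of all genes were, and the other 6 flanking genes were not called.

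**Figure D5:**
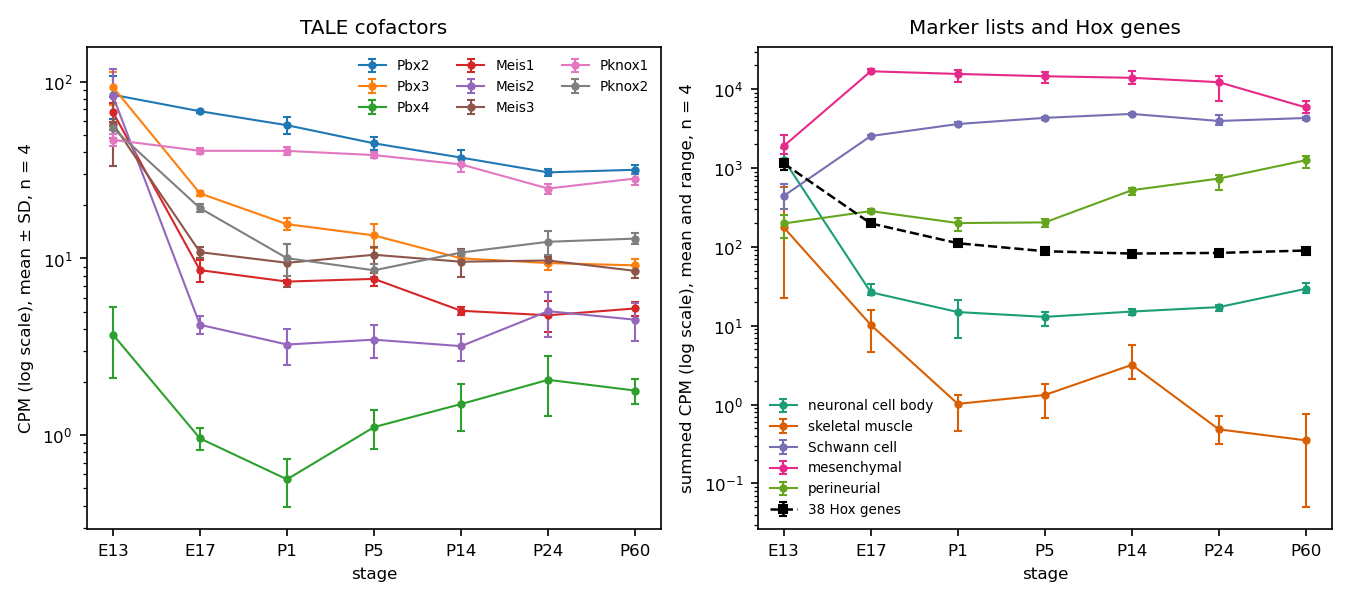
Level of 8 TALE cofactors in CPM by stage (left, mean ± SD, n = 4) and summed CPM of 5 marker lists and of the 38 Hox genes by stage (right, mean and range over 4 libraries), both on log scales. The lower end of the muscle bar at P60, where 1 library was at 0, is drawn at 0.05. Meis2 and Meis1 drop between E13 and E17, as do the neuronal list and the Hox genes, while the Schwann cell and mesenchymal lists climb.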

How the data were processed

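Bulk RNA-seq of nerve was measured in 28 libraries. The authors sequenced poly(A) RNA with a stranded kit as single reads, aligned the reads with STAR 2.6.1c and counted them per gene with featureCounts. They deposited 1 table of raw counts with 41605 Ensembl identifiers. The labels' processing notes name GRCm38.p5 as the build, and the strand and multi-mapping settings of the counting are not given in the sources used here. Of the identifiers, 41519 (99.79%) matched GENCODE M21 (GRCm38), which gave symbols, positions and exon lengths. The table carried no column of another series.

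The rule for the 38 members uses gene symbols alone, but the Hox family, the partner and marker lists and the tests were chosen with earlier results of these data known. Groups came from the labels. Low genes were removed with filterByExpr, which left 17700, and counts were scaled with TMM and fitted over all 7 stages with edgeR 4.0.16 (quasi-likelihood, R 4.3.3). A gene was called at a Benjamini-Hochberg adjusted p under 0.05 and a fold of at least 2. P-values are two-sided. The 6 sciatic stages were also tested together. The rule for naming took up to 3 called members with the largest rise and the largest fall in each comparison, and up to 2 from each partner list, each averaging 1 CPM or more where it was higher, and the highest member of each cluster at P60. Genes named outside it were chosen after their values were seen. Where all libraries of a stage were at 0, the fold is a bound from 3 counts in the shallowest of them. Total counts of 13899895 to 37662780 set the precision, and bounds cover counting error only. On simulated counts for 16995 genes in E17 against E13, 200 of 200 genes changed by 4-fold were recovered, with 2 false calls. The simulation gave all genes the same spread between libraries (dispersion 0.0439) and changed only genes averaging over 1 CPM. It therefore does not cover members under 1 CPM or the wider spread between the E13 libraries.

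Alternatives were DESeq2 1.42.0 (its test, and its size factors in the edgeR fit), limma-voom with quality weights (limma 3.58.1) and scaling by library size. Others were no filter or a filter of 1 CPM in 4 libraries, no fold minimum and a fit of the compared stages. The rest were removal of the GC trend among libraries of the same stage, a replicate block and leaving out each library. The same replicate number did not mark a shared litter or mouse in the labels. The sex of single libraries was not used. Replicates were compared over 42 pairs and 0 held identical values. Some genes are not reported here.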

Additional observations from a re-analysis of the deposited data

Results flagged for a closer look

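In 7 of 75 groups of 4 libraries, over the 12 named genes, 1 library stood far from the other 3 by Dixon's gap, and chance flags about 1 group in 20. Hoxb8 was at 202.7 CPM in E13 replicate 4, against 130 to 140 CPM in the others, and this library also had the highest summed neuronal markers of its stage. A link between these values was not tested. Hoxb9 was at 4.002 CPM in P14 replicate 3, against 2.76 to 2.94 CPM, and at 5.66 CPM in P60 replicate 2, against 2.76 to 3.05 CPM. Hoxa11 was at 0.9167 CPM in P5 replicate 2, against 0.367 to 0.428 CPM. The other 3 were single counts beside libraries at 0, Hoxc13 in P60 replicate 1 (0.07309 CPM), Hoxd1 in P5 replicate 4 (0.03672 CPM) and Hoxd1 in P14 replicate 3 (0.04084 CPM).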

How the results depend on the processing

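Of 205 recomputed counts of called genes, 192 stayed within 1.5 times the main count, and 408 of 412 fold changes of named genes kept their direction and their side of the threshold, with none reversed. Without a fold minimum the counts were 5 Hox genes at P5 against P1, 3 at P14 against P5 and 3 at P60 against P24, and 46 and 38 partner genes at E17 against E13 and P60 against E17. DESeq2's Wald test called 1 Hox gene at P24 against P14. A fit of the compared stages alone called 0 at P60 against P24, against 1 by edgeR over all stages and 3 without the fold minimum. Leaving out 1 library at a time gave 33 to 35 Hox genes at E17 against E13 (counted here with the members that passed only through E13), 12 to 15 at P1 against E17, 3 at P5 against P1, 1 to 2 at P14 against P5 (2 without P5 replicate 2, P14 replicate 1 or P14 replicate 4), 0 at P24 against P14, 0 to 1 at P60 against P24 (0 without P24 replicate 2, P24 replicate 3 or P60 replicate 3), 8 to 12 at P60 against E17 and 23 to 26 over the 6 stages, and 27 to 33 and 18 to 20 partner genes. Without E13 replicates 1 and 4 and P1 replicate 1 the Hox counts were 35, 13, 3, 1, 0, 1, 11 (1 higher and 10 lower) and 25 in the same order.

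With the replicate number as a block (replicate block) the Hox counts were 33, 15, 3, 1, 0, 1, 11 and 26, and the partner counts 27 and 20. In each comparison 1 or 2 of 4 same-numbered pairs correlated above 0.1. At E17 against E13 these pairs ran from 0.0361 to 0.144 and the other pairs from -0.159 to 0.168. For example, E17 replicate 3 correlated at 0.144 and 0.168 with E13 replicates 3 and 4, and at -0.159 and -0.102 with replicates 1 and 2. Each stage held male and female samples, and whether the replicate numbers carry a shared factor was not tested. When counts were scaled by library size only, the median of all genes was -0.33 at E17 against E13 and -0.31 at P60 against E17. The share of calls that were higher was then 28.7%, against 40.1% with TMM, at E17 against E13, 43.0% against 53.8% at P1 against E17, 44.7% against 69.4% at P5 against P1, 46.2% against 59.1% at P14 against P5, and 42.0% against 56.0% at P60 against E17. At P24 against P14 it was 64.9% against 57.1%, and at P60 against P24 52.5% against 42.7%. Of 392 recomputed shares of the Hox level, 302 moved by less than 1 SD, and the other 90 came from counts without division by length (23), leaving out the most abundant gene (29) or leaving out overlapping genes (38), and the cause was not tested. Depth limits the members with few counts, which include Hoxa13, Hoxd10, Hoxd11 and Hoxd12 after E13.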
